A study of Petunia x hybrida with 9 samples.

Results

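The corolla of wild-type Petunia hybrida cultivar Mitchell, a white-flowered petunia that gives off its scent in the evening, is described here by the absolute levels of its RNA, without a contrast to another genotype. The members are all loci with a value in the 3 wild-type libraries, out of 9 libraries in all. These are 94534 loci, of which 79813 have a best match among tomato proteins and fall on 16725 of them. The other 6 libraries, 3 each from lines A4 and A9 that overexpress a site-directed mutant of PhADT (an arogenate dehydratase), are not analysed here. Each wild-type sample was total RNA from 8 or more corollas, cut at 20 h on day 2 after the flower opened, in a greenhouse lit between 6 AM and 9 PM. The labels do not say whether the replicates came from separate plants, so the spread between them may be technical. A label giving the mutation R353A, and a growth protocol naming overexpressors, stand on the wild-type samples as well and were taken to describe the series. The RNA is that of whole corollas, so fewer cells of a type and less RNA per cell cannot be told apart.

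Petal scent of petunia consists mainly of benzenoids and phenylpropanoids, which derive from phenylalanine. Carbon enters the shikimate pathway in plastids through DAHP synthase and leaves it as chorismate, which chorismate mutase and arogenate dehydratase lead to phenylalanine. Phenylalanine ammonia-lyase (PAL) turns phenylalanine into cinnamic acid. From there, ligases, hydroxylases and O-methyltransferases build the coniferyl-type precursors of eugenol and isoeugenol, while a peroxisomal beta-oxidation shortens the side chain to benzoic acid. A decarboxylase acting directly on phenylalanine gives phenylacetaldehyde. Methylations of this kind use S-adenosylmethionine and leave S-adenosylhomocysteine, which the methyl cycle turns back into methionine.

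Levels are FPKM, fragments per kilobase of locus scaled for library size in a way that is not given. Values are given for replicates 1, 2 and 3 in that order. The level of a tomato protein is the sum of FPKM over the loci that match it best, and a locus bears the name of that protein, so a name is that of the nearest tomato protein and not of a petunia gene. The steps of low values gave 30800000, 32700000 and 31100000 fragments as the scale of the libraries. These are the fragments held by each library only if FPKM was scaled by them. On this scale, 1 FPKM stood for 43.1 to 45.6 fragments at the median locus length of 1675 bases. Between the 3 pairs of libraries, log2(FPKM + 1) correlated at 0.978, 0.984 and 0.980, which describes loci and not independent samples. The steps of low values also show that about 275 to 290 bases were subtracted from the length of a locus before its FPKM was formed. Loci shorter than 300 bases therefore have uncertain values. There were 837 of them (0.885% of loci), and they held 7.81%, 7.55% and 8.14% of the summed FPKM.

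A small number of tomato proteins held much of the RNA. A mean of at least 1 FPKM was reached by 51503 loci (54.5%) and by 13817 of the 16725 tomato proteins that are the best match of a locus (82.6%), and 760 loci were at 0 in all 3 libraries. The median level was 1.20 FPKM for a locus and 9.41 FPKM for a tomato protein. At the upper end, 1150 tomato proteins (6.88%) reached 100 FPKM, and 90 reached 1000 FPKM. Those 90 held 32.6% of the summed FPKM. The 10 most abundant tomato proteins held 12.5%, 13.5% and 12.95% of the summed FPKM in the 3 libraries, and the 100 most abundant held 33.0%, 34.3% and 33.7%. The 44 most abundant tomato proteins reached 25% of the summed FPKM, and the 461 most abundant reached 50%. Many genes were assembled as several loci, and counted by locus the concentration was lower: the 10 highest loci held 6.22% ± 0.290 (SD, n = 3).

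**Figure D1:**
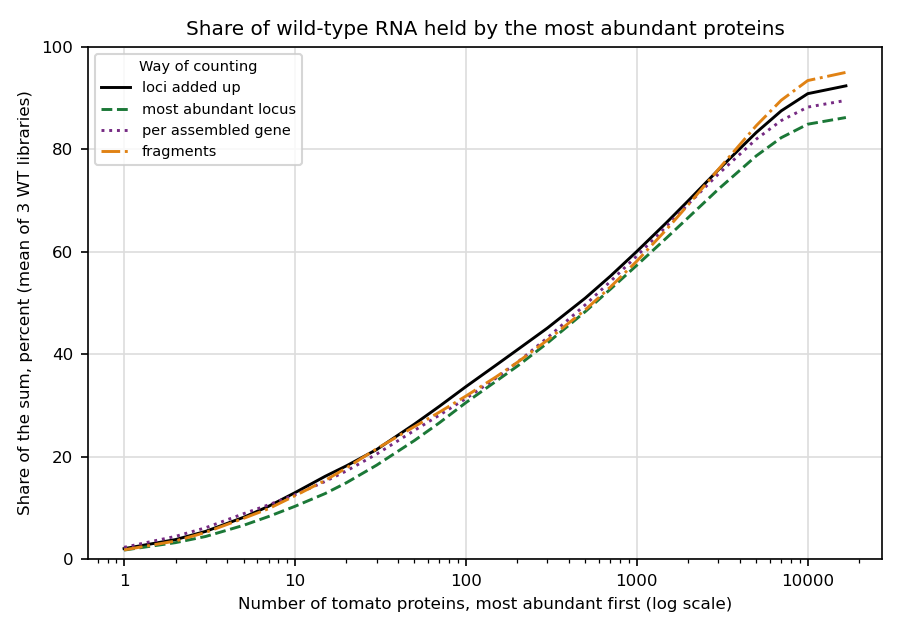
Cumulative share of the wild-type sum (y axis, percent, mean of 3 libraries) held by the most abundant tomato proteins (x axis, number of proteins, log scale) under 4 ways of counting loci. With loci added up, the curve passes 25% at 44 proteins and 50% at 461; the other ways of counting run close to it, and that with the most abundant locus only ends lowest.

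The head of the ranking was made of enzymes of phenylpropanoid and methyl metabolism together with an abscisic acid-, stress- and ripening-induced (ASR) protein and ubiquitin. With loci added up, ASR4 (Solyc04g071620.2.1), a small hydrophilic protein of a family linked to water stress, stood highest with 16387.5, 16638.5 and 17280.1 FPKM. Caffeoyl-CoA O-methyltransferase Solyc02g093270.2.1, which methylates a hydroxyl group of the ring of caffeoyl-CoA, followed with 13021, 15948 and 14686 FPKM. Ubiquitin Solyc07g064130.1.1, the tag of proteins bound for the proteasome, had 13612, 12362 and 13484 FPKM. The ranges of these 3 over the libraries show ASR4 above both others in every library, and the methyltransferase and ubiquitin overlapping. Loci under 300 bases gave 69.4% of the ASR4 value, 0.979% of the methyltransferase's and 27.2% of ubiquitin's. The first place of ASR4 depended on how loci were counted. It held 2.04% of the summed FPKM with all loci, but 0.678% and rank 12 without loci under 300 bases. With matches of an e-value of at most 1e-10 it held 1.20% and stood at rank 5. It stood at rank 4 by the most abundant locus of each protein and at rank 14 by FPKM multiplied by locus length. Ubiquitin held 1.60% with all loci and 0.427% by most abundant locus, which put it at rank 18. By FPKM multiplied by locus length it stood at rank 17. The methyltransferase was between the ranks 1 and 8 under all 13 alternatives, some of which change only the libraries or the lists.

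S-adenosylmethionine synthase Solyc09g008280.1.1, which makes the methyl donor from methionine and ATP, had 10004, 12873 and 11588 FPKM. Phenylcoumaran benzylic ether reductase Solyc04g080550.2.1 had 10495, 11433 and 11358 FPKM. Methionine synthase Solyc10g081510.1.1, which adds a methyl group to homocysteine, had 8635, 9188 and 9437 FPKM. The synthase and the reductase overlapped, and methionine synthase was below both in every library. Of the 29 pairs of neighbours among the 30 highest tomato proteins, 26 had overlapping ranges. Such pairs could still keep their order in every library. Methionine synthase was above its neighbour Solyc01g107910.2.1 (8137, 9042 and 8495 FPKM) in each library. The order of the S-adenosylmethionine synthase and the reductase, in contrast, changed between libraries.

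**Figure D2:**
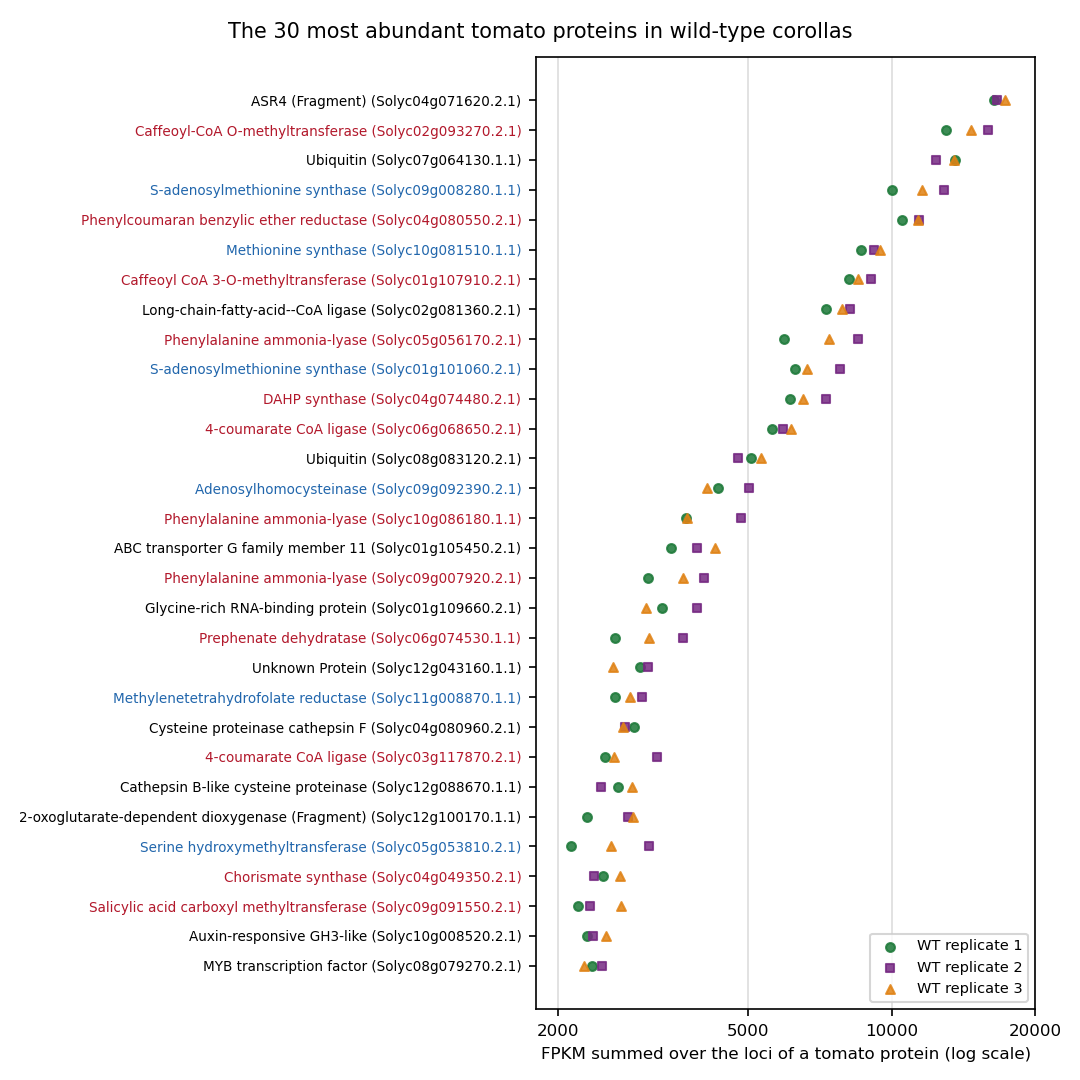
The 30 tomato proteins with the highest wild-type mean, from top to bottom, with the FPKM of each of the 3 libraries as points (x axis, log scale). Red names belong to the lists from the shikimate pathway to scent and blue names to the methyl cycle; 18 of the 30 are coloured, and most neighbours overlap.

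The route from shikimate to scent was taken as the lists of shikimate, phenylalanine branch, PAL and 4-coumarate CoA ligase, caffeoyl-CoA steps, phenylcoumaran and lignan reductases, and benzenoid scent enzymes, with peroxisomal beta-oxidation counted apart. Of the 30 proteins, 12 belonged to this route and 6 to the methyl cycle, and these 18 held 62.6% of the summed FPKM of the 30. Among the 100 highest, 31 belonged to one of them. Over the whole corolla, the route held 10.7%, 12.1% and 11.3% of the summed FPKM with 95 tomato proteins and 429 loci, which are 0.454% of all loci. The methyl cycle with one-carbon metabolism held 5.41%, 6.21% and 5.64% with 31 tomato proteins and 309 loci, or 0.327% of loci. Replicate 2 was the highest and replicate 1 the lowest for both. The median tomato protein of the methyl list had 189 FPKM, against 9.41 FPKM over all tomato proteins. Counting only the most abundant locus of each tomato protein left 9.77% in the route and 4.34% in the methyl cycle. A length-weighted mean over each assembled gene left 9.90% in the route and 3.37% in the methyl cycle. Here and below, that mean is too low where loci of an assembled gene are alternative contigs that divide the reads, which was not tested.

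The most abundant single locus was XLOC_045982, an S-adenosylmethionine synthase of 2119 bases at 97.4% identity to the tomato protein, with 7341, 8569 and 8020.2 FPKM. Of the next loci, XLOC_053395 and XLOC_053397 matched 1 caffeoyl-CoA O-methyltransferase and XLOC_067974 another. They had means of 6576, 5319 and 5450.5 FPKM. Of the 15 highest loci, 4 were under 300 bases long: XLOC_020149 and XLOC_020153 of ASR4, XLOC_071714 of ubiquitin and XLOC_028965 of a protein without a described function. The last was the 1 locus of tomato protein Solyc12g043160.1.1, 287 bases long, with 2975, 3091 and 2603 FPKM.

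The function lists, which are word patterns on the tomato names, numbered 62. Outside them were names that fit no pattern, with 14.7% ± 0.127 of the summed FPKM, and loci without a tomato match, with 7.59% ± 0.121 (SD, n = 3 in each). Among the 62, the broadest gathers names that state no function and held 6.95% ± 0.0960. The methyl cycle came next with 5.76% ± 0.411, then ubiquitin and proteasome with 5.19% ± 0.157 and the monolignol and caffeoyl-CoA steps with 3.94% ± 0.219. Ubiquitin and proteasome drew on 3194 loci (3.38% of loci), the caffeoyl-CoA steps on 158 (0.167%). Set against its share of loci, a list's share of RNA was 80.7 times as large for the reductases of phenylcoumarans and lignans, 35.4 times for PAL and 4-coumarate CoA ligase, and 25.96 times for ASR proteins and dehydrins. It was 23.6 times for the caffeoyl-CoA steps, 17.98 times for benzenoid scent enzymes, 17.6 times for the methyl cycle and 17.2 times for the shikimate pathway. The ratio was 2.13 for cytosolic ribosomal proteins, 1.89 for photosynthesis, 0.522 for flavonoid and anthocyanin enzymes and 0.126 for mobile elements.

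**Figure D3:**
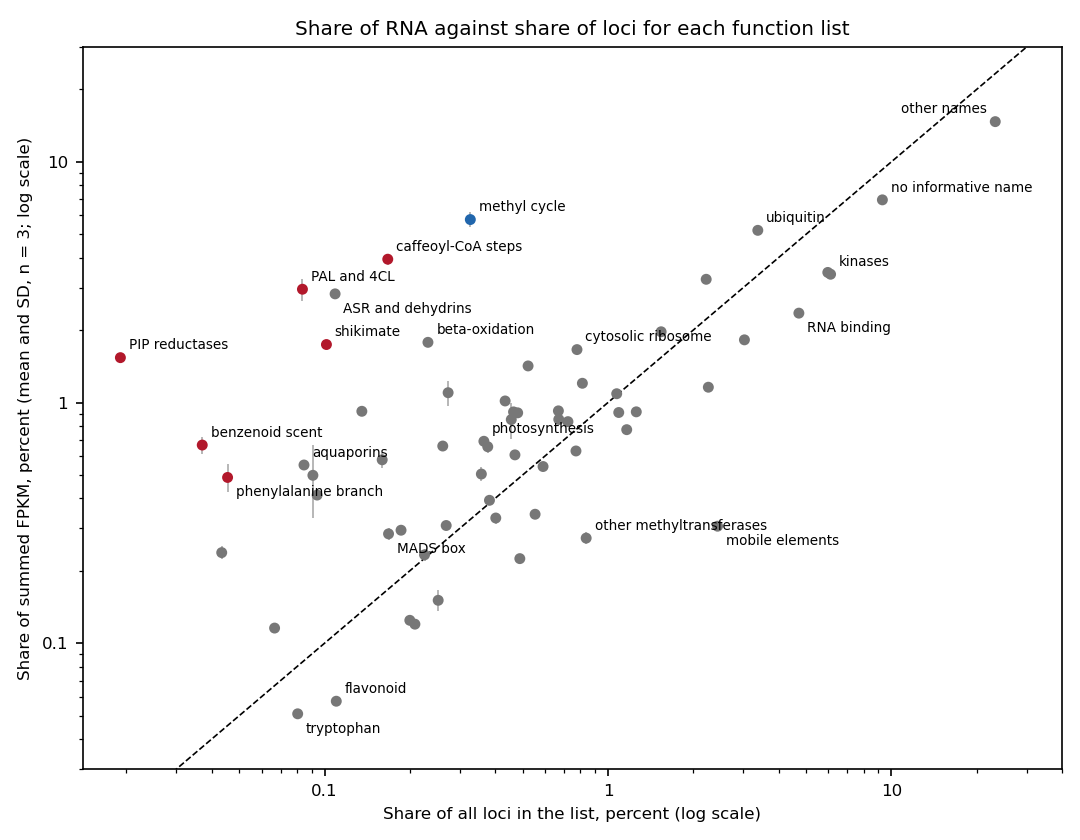
Share of the summed FPKM (y axis, percent, log scale) against the share of loci (x axis, percent, log scale) for the function lists; the dashed line marks equal shares. The lists in red (shikimate to scent) and blue (methyl cycle) lie far above the line, flavonoid enzymes and mobile elements below it.

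The entry of the shikimate pathway held far more RNA than its middle. DAHP synthase, which joins phosphoenolpyruvate and erythrose 4-phosphate, summed to 6755, 8028 and 7245 FPKM over 3 tomato proteins, of which Solyc04g074480.2.1 gave 90.6%. Dehydroquinate synthase had 338, 411 and 380.0 FPKM. The next enzyme, dehydroquinate dehydratase/shikimate dehydrogenase, had 1274, 1212 and 1216 FPKM. The entry step was the highest of these 3 and dehydroquinate synthase the lowest, with ranges that do not overlap. Shikimate kinase, which phosphorylates shikimate, was the lowest of the 6 steps with 283, 304 and 283 FPKM. EPSP synthase, the target of glyphosate, had 2329, 2877 and 2468 FPKM. Chorismate synthase, represented by a single tomato protein (Solyc04g049350.2.1), had 2490.2, 2383 and 2705 FPKM. The last 2 enzymes thus overlapped with each other and stood above the 3 middle enzymes in every library. The 6 steps together, with 15 tomato proteins, held 1.74% ± 0.0777 of the summed FPKM, and their median tomato protein had 279 FPKM. Their share was 0.770% with a length-weighted mean over each assembled gene and 2.90% by FPKM multiplied by locus length. Per assembled gene, DAHP synthase held 0.479%, EPSP synthase 0.154%, chorismate synthase 0.0642% and shikimate kinase 0.00524%.

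Each shikimate enzyme drew on a main tomato protein. The leading protein gave 99.2% of dehydroquinate synthase, 98.1% of shikimate kinase, 89.1% of EPSP synthase and 77.9% of shikimate dehydrogenase. The rest of DAHP synthase came almost entirely from Solyc11g009080.1.1 with 621, 719 and 699.5 FPKM. The carbon supply upstream was lower than the entry step. Transaldolase summed to 850.4, 1034 and 900.1 FPKM, enolase to 751, 901 and 770.3 FPKM and transketolase to 471, 589 and 549 FPKM. These enzymes of the pentose phosphate pathway and glycolysis provide the 2 substrates of DAHP synthase, and their ranges overlap in the case of transaldolase with enolase only.

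After chorismate and with loci added up, the dehydratase step of the phenylalanine branch stood far above the steps named for the tyrosine and tryptophan branches. Chorismate mutase, which makes prephenate, had 497, 576 and 573 FPKM, of which the protein named chorismate mutase 1 (Solyc02g088460.2.1) gave 94.6%. It is the committed step towards phenylalanine and tyrosine. The 10 loci of that protein came from 1 assembled gene, and with a length-weighted mean per assembled gene the share of the step was 0.00804%, which is 0.121 times its share with loci added up. The step annotated as prephenate dehydratase, the name under which plant arogenate dehydratases usually appear, had 2913, 4039 and 3444 FPKM. Prephenate dehydrogenase, the name under which enzymes of the tyrosine branch appear, had 7.07, 8.86 and 8.74 FPKM over 3 tomato proteins. Anthranilate synthase, which opens the tryptophan branch, had 36.7, 40.4 and 33.6 FPKM. With loci added up, chorismate mutase and the dehydratase were each above both in every library. Per assembled gene, chorismate mutase stood at rank 28 among the steps and anthranilate synthase at rank 30. Prephenate dehydratase Solyc06g074530.1.1 alone had 2639.9, 3650.04 and 3106 FPKM, and Solyc11g066890.1.1 followed with 249, 368 and 314 FPKM. The first of them received 20.5% of its value from a short locus. As lists, the arogenate and phenylalanine branch held 0.488% ± 0.0647 of the summed FPKM with 9 tomato proteins, against 0.0509% ± 0.000587 with 21 proteins for the tryptophan branch. The former list includes the 3 proteins named prephenate dehydrogenase. The aminotransferase between prephenate and arogenate is not set apart by a tomato name and has no value here.

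PAL, which commits phenylalanine to phenylpropanoids, was the third step in level with 13281, 18022 and 15330.3 FPKM. Its RNA was spread over several family members. Solyc05g056170.2.1 had 5964, 8515 and 7378 FPKM, Solyc10g086180.1.1 had 3716, 4837 and 3735 FPKM, and Solyc09g007920.2.1 had 3086, 4040.1 and 3654 FPKM. The leading member thus gave 46.9% of the step and lay above the others in each library. The ranges of Solyc10g086180.1.1 and Solyc09g007920.2.1 overlapped, with the former above the latter in each library. A further member, Solyc09g007900.2.1, had 514, 630.4 and 563 FPKM. Replicate 2 was the highest library for all 4. The nearest tomato protein can collect several petunia genes: the 4 loci of Solyc05g056170.2.1 came from 4 assembled genes, the most abundant of them (XLOC_082237) at 79.0% identity with a length of 541 bases.

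4-Coumarate CoA ligase (4CL), which activates hydroxycinnamic acids, summed to 8203, 9285 and 8903 FPKM over 9 tomato proteins. Solyc06g068650.2.1 had 5613, 5920.1 and 6167 FPKM and Solyc03g117870.2.1 had 2508, 3223 and 2619 FPKM. These 2 proteins carried nearly the whole step, and each of the remaining members named 4CL was at most 115.5 FPKM in every library. Hydroxycinnamoyl transferase, which passes the acid to shikimate or quinate for hydroxylation, had 4073, 4353 and 4394 FPKM over 16 tomato proteins. Its leading protein Solyc02g079490.2.1 is a distant match at 51.8% identity of the top locus, whereas the next, Solyc03g117600.2.1 with 1719.8, 2079.7 and 1902 FPKM, matched at 92.4%. Cinnamate 4-hydroxylase is a cytochrome P450, and the tomato names of that family do not tell which member it is.

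Caffeoyl-CoA O-methyltransferase was the step with the most RNA, at 23393, 27657 and 25626 FPKM. It was above every other step in each library. Solyc02g093270.2.1 gave 56.9% of it and Solyc01g107910.2.1, with 8137, 9042 and 8495 FPKM, gave 33.5%. Solyc10g050160.1.1 had 1845, 2210.1 and 2071 FPKM. The first matched at 96.6% and the second at 94.8% identity by their top loci. The reductive steps that follow were far lower in every library: cinnamoyl-CoA reductase had 1175, 1298 and 1202 FPKM and cinnamyl alcohol dehydrogenase 1198, 1342 and 1249.6 FPKM, with overlapping ranges. Each was carried by a single protein, Solyc06g068440.2.1 with 95.2% of the reductase and Solyc01g107590.2.1 with 92.5% of the dehydrogenase.

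The scent end of the route was led by reductases of the family that also holds the petunia eugenol and isoeugenol synthases. Phenylcoumaran benzylic ether reductases summed to 11844, 13047 and 12821 FPKM over 2 tomato proteins. Solyc04g080550.2.1 collected loci of very different likeness: XLOC_015369 (935 bases) matched it at 88.5% identity with a mean of 4215 FPKM, XLOC_015366 (3220 bases) at 89.6% with 3070.3 FPKM, and XLOC_081791 (2470 bases) at 46.15% with 2319 FPKM. The second protein, Solyc10g052500.1.1, had 1349, 1614 and 1463 FPKM and its top locus matched at 42.9%. The tomato name cannot say whether such loci encode a phenylcoumaran benzylic ether reductase, a phenylpropene synthase or another member of the family. Pinoresinol-lariciresinol reductase Solyc06g066170.2.1, a lignan enzyme of the same superfamily, had 66.2, 66.4 and 55.4 FPKM.

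Aromatic L-amino acid decarboxylase, the family to which petunia phenylacetaldehyde synthase belongs, had 2853, 2957 and 3344 FPKM. Solyc03g044120.1.1 gave 2124, 2259 and 2564 FPKM of this, with a top locus at 66.0% identity, and Solyc03g045020.2.1 gave 720.4, 691 and 769.8 FPKM. Carboxyl methyltransferases of the SABATH family, which make methyl esters such as methyl benzoate and methyl salicylate, had 2215, 2345 and 2721 FPKM, of which the protein named salicylic acid carboxyl methyltransferase (Solyc09g091550.2.1) gave 99.5%. For both steps replicate 3 was the highest library, in contrast to PAL, where it was replicate 2. The methyltransferase was assembled as 11 loci, 9 of them from 1 assembled gene. With a length-weighted mean over each assembled gene its rank among tomato proteins moved from 28 to 290. This mean is too low if those loci are alternative contigs that divide the reads. The list of benzenoid scent enzymes held 0.666% ± 0.0520 of the summed FPKM; 3 of its 10 tomato proteins reached 100 FPKM, and its median protein had 5.85 FPKM.

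Among the enzyme families of side-chain shortening in peroxisomes, acyl-CoA ligases stood above the families of the later steps. The tomato names do not say which members act on cinnamic acid or in peroxisomes. Acyl-CoA ligases, the family of the petunia cinnamate-CoA ligase, summed to 9853, 10771 and 10774 FPKM over 26 tomato proteins. Solyc02g081360.2.1, named long-chain-fatty-acid CoA ligase, had 7282, 8202 and 7882 FPKM from 8 loci of 1 assembled gene. With a length-weighted mean per assembled gene its share was 0.205% of the summed FPKM, against 0.947% with loci added up, and its rank 44 in place of 8. Solyc02g081370.2.1, named acyl-CoA synthetase, had 1779, 1764 and 2112 FPKM, all from a locus of 295 bases. The fatty acid oxidation complex subunit alpha, a hydratase and dehydrogenase, had 1914, 2041 and 1966 FPKM, led by Solyc07g019670.2.1 with 78.3%. 3-Ketoacyl-CoA thiolase, which cleaves the chain, had 1403, 1804 and 1786 FPKM, led by thiolase 1 (Solyc09g061840.2.1) with 88.8%. The steps did not overlap in range: the ligase was above the complex and the complex above the thiolase in each library. The list, 44 tomato proteins, held 1.78% ± 0.0598 of the summed FPKM, with a median protein of 24.7 FPKM. Per assembled gene the share of the list was 0.956%.

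The methyl cycle was abundant at each of its enzymes. S-adenosylmethionine synthase summed to 17890.0, 22921 and 19941 FPKM and overlapped in range with PAL. Beside the leading Solyc09g008280.1.1, Solyc01g101060.2.1 had 6262, 7807 and 6664 FPKM and Solyc12g099000.1.1 had 1163, 1294 and 1056 FPKM. The leading protein was above each of them in every library. Methionine synthase had 8797, 9341 and 9604 FPKM, of which 98.3% came from 1 tomato protein. Adenosylhomocysteinase, which removes the product that inhibits methyltransferases, had 5841, 6546 and 5459 FPKM. The folate side supplies the methyl group: methylenetetrahydrofolate reductase had 4566, 5284.5 and 5195 FPKM and serine hydroxymethyltransferase 3752, 4692 and 4348 FPKM. Replicate 1 was the lowest library for the synthases, the folate reductase and serine hydroxymethyltransferase, and replicate 3 for adenosylhomocysteinase. By FPKM multiplied by locus length, methionine synthase Solyc10g081510.1.1 was the highest of all tomato proteins. This product uses the full length of a locus and is therefore not a count of fragments. With a length-weighted mean per assembled gene, the protein stood at rank 17. Its 3 highest loci are 2821, 3176 and 3464 bases long.

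Ranked by summed FPKM, the 32 steps ran from caffeoyl-CoA O-methyltransferase, with a mean of 25558 ± 2133 FPKM (SD, n = 3), to prephenate dehydrogenase, with 8.22 ± 1.00 FPKM. The order at the top was caffeoyl-CoA O-methyltransferase, S-adenosylmethionine synthase, PAL, phenylcoumaran benzylic ether reductase, acyl-CoA ligase, methionine synthase, 4CL and DAHP synthase. Of the 31 pairs of neighbours, 13 overlapped, among them S-adenosylmethionine synthase with PAL and methionine synthase with 4CL. In both of these pairs the former step was nevertheless above the latter in every library. A run of overlapping neighbours reached from hydroxycinnamoyl transferase through serine hydroxymethyltransferase, prephenate dehydratase, the aromatic amino acid decarboxylase, EPSP synthase and chorismate synthase to the carboxyl methyltransferase. These 7 steps had means between 2427 and 4273 FPKM. Names of chalcone and anthocyanin synthesis were at the other end, with chalcone synthase at 10.5, 6.06 and 9.93 FPKM.

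**Figure D4:**
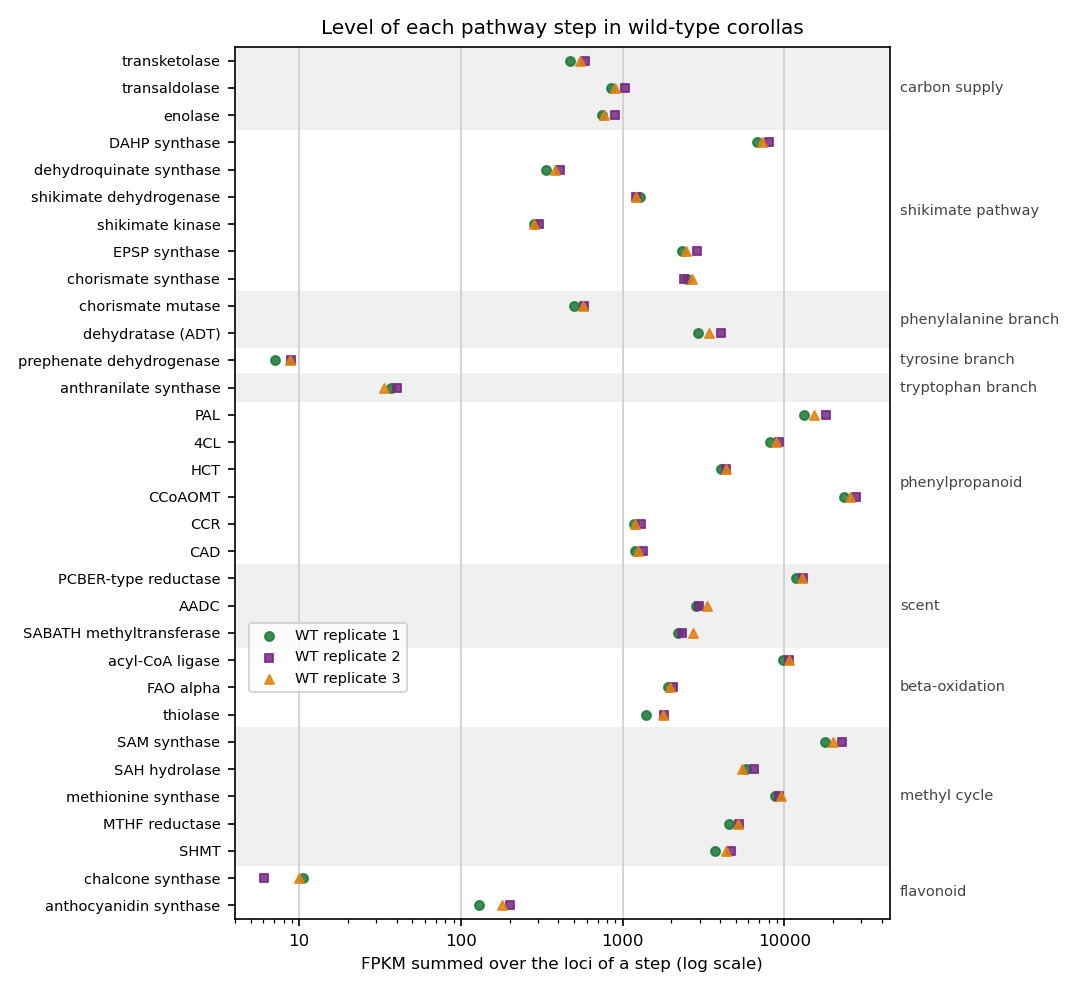
Summed FPKM (log scale) of the 32 pathway steps in the order of the pathway and grouped by block, each library as a point; CCoAOMT is caffeoyl-CoA O-methyltransferase, HCT hydroxycinnamoyl transferase, CCR cinnamoyl-CoA reductase, CAD cinnamyl alcohol dehydrogenase, PCBER phenylcoumaran benzylic ether reductase, AADC aromatic amino acid decarboxylase and SHMT serine hydroxymethyltransferase. CCoAOMT has the highest mean and prephenate dehydrogenase the lowest, and the points of a step mostly lie close together.

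The order depended little on the libraries but in part on how loci were added up. The ranks were taken under 13 alternatives. Among these, rescaling the libraries to the same sum and putting chance word matches back into the lists cannot move a step. Taking the median of the libraries or leaving out a library does not change how loci are added up. Under all 13, caffeoyl-CoA O-methyltransferase and S-adenosylmethionine synthase were between the ranks 1 and 3 and PAL at 2 or 3. The phenylcoumaran benzylic ether reductases were at 4 or 5 and acyl-CoA ligase at 5 to 7. DAHP synthase ranged between 6 and 10, methionine synthase between 5 and 11 and chorismate synthase between 13 and 21. Anthranilate synthase was at rank 30 in each of them.

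**Figure D5:**
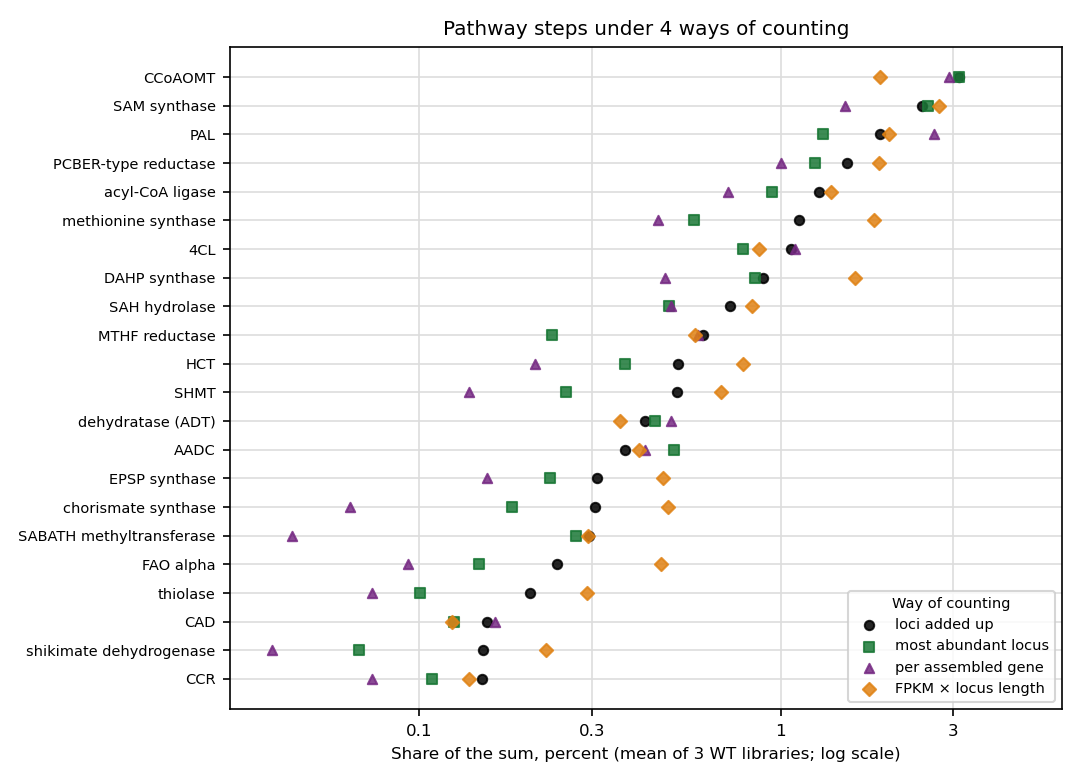
Share of the summed FPKM (percent, log scale) of the 22 highest pathway steps under 4 ways of adding up loci. Caffeoyl-CoA O-methyltransferase, S-adenosylmethionine synthase and PAL stay within the ranks 1 to 3, while methionine synthase moves between the ranks 5 and 11.

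The pathway steps shared a pattern between the libraries. Of 25 steps of the route, beta-oxidation and the methyl cycle, replicate 1 was the lowest library in 21 and replicate 2 the highest in 18. Among the 72 route and methyl proteins of at least 10 FPKM, replicate 1 was the lowest in 61.1% and replicate 2 the highest in 59.7%. Among all 8118 tomato proteins of that level the percentages were 45.4% and 42.8%. The median ratio of replicate 2 to replicate 1 was 1.12 for those 72 and 1.03 for all 8118. What set the libraries apart was not tested.

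Of transport proteins, ABC transporter G family member 11 (Solyc01g105450.2.1) was the highest with 3453, 3907 and 4267 FPKM. Transporters of the G family in plants export lipids, wax and other hydrophobic compounds, and in petunia a member of this family exports volatiles. The top locus of Solyc01g105450.2.1, XLOC_036854, matched at 85.2% identity. The next ABC transporter, Solyc05g054890.2.1, had 199.7, 212 and 191 FPKM, below it in every library, and the list of 71 proteins held 0.655% ± 0.0382. Lipid transfer proteins, which carry lipids through the wall, were led by Solyc08g079250.2.1 with 456, 513 and 474 FPKM. Plasma membrane H-ATPases Solyc06g071100.2.1 (1161, 1024 and 1177 FPKM) and Solyc03g113400.2.1 (888, 895 and 848 FPKM) led the proton pumps, which power secondary transport. Aquaporins, the water channels, held 0.550% ± 0.0203 with 26 proteins, and both leading members were highest in replicate 2: Solyc01g111660.2.1 had 1003.5, 1476 and 1020.5 FPKM.

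Protein turnover took a large part of the RNA outside metabolism. Ubiquitin names led it. Beside the first ubiquitin, Solyc08g083120.2.1 had 5087, 4761 and 5333 FPKM, 93.4% of it from short loci, and Solyc10g006480.1.1 had 2265, 2152 and 2107 FPKM, none of it from short loci. Without loci under 300 bases the first ubiquitin stood at rank 4, while Solyc08g083120.2.1 stood at rank 242 in place of 13. Cysteine proteases of the vacuole and lysosome-like compartments, known from senescing petals among other tissues, came next. Cathepsin F Solyc04g080960.2.1 had 2883, 2765 and 2736 FPKM, cathepsin B-like Solyc12g088670.1.1 had 2673, 2464 and 2866 FPKM, and cathepsin L-like Solyc07g041900.2.1 had 1818, 1855 and 2136 FPKM. Cathepsins F and B overlapped, and cathepsin L was below them in each library. Vacuolar processing enzyme 3 (Solyc12g095910.1.1) had 1299, 1277 and 1251 FPKM. The proteases and inhibitors together, 364 tomato proteins, held 3.25% ± 0.127 of the summed FPKM, with a median protein of 12.8 FPKM.

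Stress-linked and metal-binding small proteins were a further abundant group. ASR proteins and dehydrins held 2.83% ± 0.107 of the summed FPKM with 33 proteins, of which ASR4 alone held 2.04%. The list held 1.52% without loci under 300 bases and 1.09% by FPKM multiplied by locus length, and its ratio to the share of loci, given above, is from all loci added up. The 7 loci of ASR4 matched the tomato protein at a median identity of 47.9%. Defensin Solyc11g028040.1.1, a small antimicrobial protein, had 2061, 2132 and 2871 FPKM from 1 locus at 41.9% identity, with replicate 3 above the others. Type 2 metallothionein Solyc09g010800.2.1, a metal-binding protein, had 2317, 2073 and 1986 FPKM. The other leading metal-binding names were a blue copper protein (Solyc07g008140.2.1; 1768.5, 2395 and 2043 FPKM) and the metallothionein-like Solyc06g076140.2.1 (1202, 1277 and 1084 FPKM).

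Among the named families of transcription factors set apart as lists of their own, MYB factors held more of the summed FPKM than MADS-box factors and ethylene response factors. Solyc08g079270.2.1 reached the 30 highest tomato proteins with 2360.4, 2477 and 2272 FPKM, from 2 loci, of which the higher matched at 68.6% identity. Solyc02g067760.2.1 had 1207, 1485 and 1442 FPKM and Solyc01g111500.2.1 had 1363, 1388 and 1283 FPKM, which overlap. R2R3-type MYB proteins are known as regulators of the scent pathway in petunia, but the tomato names say no more than MYB. The list of 108 proteins held 0.906% ± 0.0323, and its median protein had only 3.98 FPKM, so a few members carried it. MADS-box factors, among which are the petal identity genes, held 0.285% ± 0.0173 with 36 proteins. Solyc08g067230.2.1 led them with 1094.5, 908 and 1022 FPKM, above Solyc04g081000.2.1 with 447, 432 and 435 FPKM in every library.

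Of the hormone-linked names outside the ASR list, the highest was an auxin name. The GH3-like protein Solyc10g008520.2.1, of a family that conjugates hormones or other acids to amino acids, had 2299, 2369 and 2517 FPKM. Auxin responsive protein Solyc09g083290.2.1 had 1280.3, 1294 and 1380.0 FPKM and auxin-repressed protein Solyc02g077880.2.1 had 1168, 1146.5 and 1090.2 FPKM. The 92 auxin names held 1.02% ± 0.0171 of the summed FPKM. The list of ethylene, jasmonate, gibberellin and other hormones held 0.850% ± 0.144. Its highest name, lipoxygenase homology domain-containing protein 1 (Solyc04g054980.2.1), had a mean of 1478 FPKM. Ethylene response factors, with 79 proteins, held 0.233% ± 0.0134, and both leading members, Solyc03g123500.2.1 and Solyc06g063070.2.1, lay between 396 and 461 FPKM. Clock and CONSTANS-like names held 0.308% ± 0.00655. They were led by the CONSTANS-like protein Solyc07g006630.2.1 with 373, 516 and 481 FPKM, and GIGANTEA 2 (Solyc12g056650.1.1), a clock component with an evening peak in Arabidopsis, had 303, 292 and 308 FPKM. Levels at other hours were not measured.

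Cytochrome P450 names, the family of the hydroxylases of the route, held 0.914% ± 0.0466 with 122 proteins. Solyc05g011970.2.1 was highest with 1195, 961 and 987 FPKM, and Solyc05g047530.2.1 had 658, 1120.3 and 761 FPKM with replicate 2 above the others. A cytochrome b5 (Solyc06g007930.2.1), an electron carrier to P450 enzymes and desaturases, had 1375, 1507 and 1381 FPKM. The glucosyltransferase Solyc08g006350.2.1, of a family that attaches sugars to small molecules, had 1403, 1337 and 1418 FPKM and matched at 50.6% identity. Carotenoid cleavage dioxygenase 1B (Solyc01g087260.2.1), an enzyme of apocarotenoid volatiles, led the terpenoid and carotenoid names with 1461, 1688 and 1773 FPKM, followed by 1A (Solyc01g087250.2.1) with 603, 761.9 and 811 FPKM. The 2-oxoglutarate-dependent dioxygenase Solyc12g100170.1.1 had 2299, 2809 and 2877 FPKM, 61.7% of it from short loci.

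The lists of respiration, cytosolic ribosomal proteins, and carbon and nitrogen metabolism each held less of the summed FPKM than the methyl cycle. Mitochondrial respiration held 1.42% ± 0.0355 with 130 proteins and a median protein of 41.0 FPKM, and cytosolic ribosomal proteins held 1.66% ± 0.0591 with 181 proteins and a median of 37.1 FPKM. Both medians were above the 9.41 FPKM of all tomato proteins. In the pentose phosphate pathway, 6-phosphogluconate dehydrogenase Solyc04g005160.1.1 had 666, 710.2 and 683 FPKM and glucose-6-phosphate dehydrogenase Solyc02g093830.2.1 had 659, 594 and 650.3 FPKM. These enzymes provide NADPH. Glycolysis held 0.606% ± 0.0228 and was led by triosephosphate isomerase Solyc04g011510.2.1 with 677, 703 and 744 FPKM. Sucrose synthases Solyc12g009300.1.1 and Solyc09g098590.2.1, which cleave imported sucrose, lay between 358 and 415 FPKM. Glutamine synthetase Solyc11g011380.1.1, which can take up ammonium such as PAL releases, had 1071, 1106 and 1113 FPKM and led the names of nitrogen metabolism together with asparagine synthetase Solyc01g079880.2.1 (1064, 945 and 1039 FPKM).

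The flavonoid branch, which competes with the scent route for coumaroyl-CoA and gives petal pigments, was low in this white corolla. Its 31 tomato proteins held 0.0574% ± 0.000852 of the summed FPKM, and 1 of them reached 100 FPKM. This was Solyc11g013110.1.1, named anthocyanidin synthase, with 110, 182 and 158 FPKM, whose top locus matched at 83.8%. The next protein of that name, Solyc08g080040.2.1, had a mean of 14.3 FPKM. The name alone does not say which flavonoid enzyme such loci encode. The step of 4CL, which makes coumaroyl-CoA, was at 8797 ± 548 FPKM, and chalcone synthase, which uses it, at 8.84 ± 2.43 FPKM (SD, n = 3 each). Photosynthesis names held 0.690% ± 0.0199 with 106 proteins. The highest was CP12 (Solyc01g079470.2.1), a regulator of the Calvin cycle, with 1263, 1174 and 1324 FPKM, above the RuBisCO small chain Solyc02g085950.2.1 with 449.9, 646 and 501 FPKM.

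The named markers of a corolla and of other organs differed widely in level. The 7 scent markers, which overlap with steps above, summed to between 16904 and 18876 FPKM, and none was at 0. Most of that sum came from both phenylcoumaran benzylic ether reductase names, Solyc04g080550.2.1 with a mean of 11095 FPKM and Solyc10g052500.1.1 with 1476 FPKM, which may or may not stand for scent enzymes. The 21 markers of green tissue (RuBisCO small chains and chlorophyll a-b binding proteins) summed to between 1128 and 1430.1 FPKM, or 0.155% of the total. The 15 names of pollen and anther summed to between 258 and 311 FPKM, with 1 at 0 and 6 below 1 FPKM, and were led by a pollen allergen-like protein (Solyc04g054810.2.1). The 3 pistil names were all under 1 FPKM and summed to between 1.07 and 1.78 FPKM, and the root cap name was at 0. Phloem names summed to between 137 and 167 FPKM. The tomato names do not single out the petal identity genes, and the tomato identifiers were not looked up in other sources. These genes were therefore not used as markers.

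Levels were alike in the 3 libraries for most proteins, and varied most in the list of expansins and xyloglucan enzymes. The median coefficient of variation was 7.08% over the 8118 tomato proteins of at least 10 FPKM. Expansins and xyloglucan enzymes, which loosen and rebuild the wall of growing cells, held 0.527%, 0.318% and 0.651% of the summed FPKM. Their median coefficient of variation was 40.2%, and 9 of their 11 members of at least 10 FPKM were lowest in replicate 2. Of all 8118 tomato proteins of that level, 32.6% were lowest in replicate 2. Xyloglucan endotransglucosylase/hydrolase 8 (Solyc09g092520.2.1) had 915, 253 and 1019.8 FPKM, and the protein numbered 9 (Solyc03g093080.2.1) had 1346, 1299 and 2570.2 FPKM. Replicate 2 was thus far below the others for the one, and replicate 3 far above them for the other. Gibberellin-regulated protein 2 (Solyc01g111080.2.1) had 2026, 638 and 1593 FPKM. It was not among the 10 most variable and is named as the second member of its hormone list. Among tomato proteins of at least 50 FPKM, the largest coefficient of variation, 72.5%, belonged to a phosphatase 7 homolog (Solyc12g056690.1.1) with 60.8, 139 and 30.8 FPKM from a locus of 226 bases. After it came xyloglucan enzymes, a membrane protein, a polygalacturonase inhibitor, a pectinesterase (Solyc03g123630.2.1; 107, 34.4 and 61.9 FPKM) and a P450 (Solyc04g078340.2.1; 361.1, 132 and 189 FPKM). A dicarboxylate transporter and a protein without a described function followed. The pectinesterase and the P450 were again lowest in replicate 2. This was also the library in which most steps of the route were highest, and a relation between both patterns was not tested.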

How the data were processed

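The authors deposited 1 table of FPKM with a column per library and 1 table of tomato protein matches that gives, per the file headers, identity in percent, bit score and e-value (at most 0.001; median identity 82.46%). Tools named in the submitters' processing notes are Bowtie2 2.2.6 and FastQC 0.11.2. The name of the deposited match table calls the locus identifiers Cufflinks ids; contig assembler, FPKM program and scaling: not given in the sources used here. Samples were grouped by their titles, and only the 3 wild-type columns were used.

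FPKM was averaged over the 3 libraries per locus, and summed per tomato protein, function list and pathway step with Python 3.11.15, pandas 2.3.3 and numpy 2.4.6; figures used matplotlib 3.10.9. Errors are SDs over the libraries. No test was made, since 1 group is described. Neighbours in a ranking are said to overlap where their ranges over the libraries overlap. Overlapping neighbours can still keep the same order in every library. The scale of each library was found from loci of 700 to 2000 bases with low values: 100% of those up to 4 fragments were whole to within 0.1 fragment. The scripts were checked on simulated data.

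The members, lists and steps were chosen with earlier results of these data known. List patterns were corrected after names matched by chance of a word. Named were the 30 highest tomato proteins and 15 highest loci, up to 4 proteins per list and step, the 10 highest loci without a match, and the 10 proteins with the largest coefficient of variation among those of at least 50 FPKM; loci and proteins outside this rule were chosen after their values were seen. Alternatives left out short loci, weak matches or single libraries, or counted loci differently.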

Additional observations from a re-analysis of the deposited data

How the results depend on the processing

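No paired analysis was possible because only the wild-type group is described and no test between groups was made. Of the summed FPKM, the share in the 10 highest tomato proteins (12.97%) became 10.3% with the most abundant locus of each protein, 12.4% with FPKM multiplied by locus length, 12.1% without loci under 300 bases, 12.3% without loci under 500 bases (chosen after seeing the data) and 12.1% with e-values of at most 1e-10. The share in the 100 highest (33.7%) became 30.6%, 31.8%, 32.1%, 32.7% and 31.8% under the same changes, 31.4% with a length-weighted mean per assembled gene and 34.4% with loci of at least 1 FPKM. The route (11.3%) held 9.77% by most abundant locus, 9.90% per assembled gene, 12.1% without loci under 300 bases and 12.6% without those under 500. The methyl cycle (5.76%) held 4.34% by most abundant locus, 7.13% by length and 3.37% per assembled gene. Per assembled gene 17 of the 30 highest tomato proteins stayed among the 30 highest. Under all 13 alternatives, some of which change only the libraries or the lists, 13 did so. Thresholds of 0.1, 5 and 10 FPKM gave 89889, 19915 and 11512 loci, and 10 FPKM gave 8118 tomato proteins. Leaving out each library in turn gave 12.7% to 13.2% for the 10 highest, 33.4% to 34.01% for the 100 highest, 10.96% to 11.7% for the route and 5.53% to 5.93% for the methyl cycle. Where loci are pieces of a gene split by the assembly, adding their FPKM gives an upper value. Where loci of 1 assembled gene are alternative contigs that divide the reads, the mean per assembled gene is too low instead. Loci of 1 assembled gene can be long, such as those of DAHP synthase Solyc04g074480.2.1 with 2486, 3537, 3958 and 2514 bases. Which case holds for a given protein was not tested. The value of a gene among near-identical loci, which share reads, is uncertain.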

Other observations

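Names of chromatin proteins were a further abundant group. The 49 names of histones and chromatin proteins held 1.22%, 1.10% and 0.971% of the summed FPKM from 0.273% of loci, and 15 of them reached 100 FPKM. The H1 histone-like protein Solyc02g084240.2.1, a linker histone, had 2212, 1829 and 1573 FPKM. Histone H1 Solyc06g084020.2.1 had 1828, 1446 and 1371 FPKM, and a high mobility group protein (Solyc02g082700.2.1) had 1588, 1577 and 1394 FPKM. All 3 were highest in replicate 1 and lowest in replicate 3. Glycine-rich RNA-binding protein Solyc01g109660.2.1, of a family that responds to cold and to the clock in other plants, had 3303, 3912 and 3053 FPKM, above any other name of the RNA-binding and splicing list. Remorin 1 (Solyc06g035920.2.1), a plasma membrane protein, had 2242, 2243 and 2354 FPKM, with importin beta-3 (Solyc01g044360.2.1) next in the membrane traffic list at 1705, 1827 and 2154 FPKM. Names of mobile elements made up 2.44% of loci and held 0.306% ± 0.0136 of the summed FPKM; 3 of 190 reached 100 FPKM.

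Loci without a tomato match, 14721 of them, held 7.70%, 7.46% and 7.60% of the summed FPKM. The highest were XLOC_033445 (570 bases) with 1529, 1715 and 1709.8 FPKM, XLOC_066960 (252 bases) with 1604, 1310.3 and 1556 FPKM, and XLOC_065604 (715 bases) with 1451, 1463 and 1405 FPKM. XLOC_035877 (3298 bases) had 1111, 997 and 1071 FPKM. The share of loci without a match was 32.6% below 0.1 FPKM and 5% at 1000 FPKM and above, while the median identity of matched proteins was 77.3% in the lowest class and 86.6% in the highest. Of the 90 tomato proteins of at least 1000 FPKM, 5 had a name that states no function, among them Solyc07g054470.1.1 with 1363, 1836 and 1533 FPKM from 986 bases of locus.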
